A study of Homo sapiens with 12 samples.

Results

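The expression of 10 receptor tyrosine kinase genes was followed in mRNA sequencing of LNCaP and 22Rv1 cells, which are human prostate cancer (PCa) cell lines. The genes were the 4 ERBB receptors (EGFR, ERBB2, ERBB3 and ERBB4), the 4 FGF receptors (FGFR1, FGFR2, FGFR3 and FGFR4), the HGF receptor MET and the IGF1 receptor IGF1R. They were chosen by symbol, with earlier results of these data known, and make up 10 of the 60660 genes in the files. LNCaP derives from a lymph node metastasis and 22Rv1 from a xenograft that grew back after castration. Cells of each line received either piR-4447944 mimic, a synthetic copy of a PIWI-interacting RNA, or the negative control NC-mimic, which gave 4 groups of 3 libraries. The medium of all 12 cultures was RPMI-1640 whose serum (10%) had been stripped with charcoal, so androgen deprivation was shared by controls and treated cells alike. Each line is 1 established line, and the labels do not say whether replicates were separate cultures. The p-values therefore measure the spread between these libraries, which may be technical.

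The libraries held between 12161091 and 22179601 expected counts, the reads that RSEM assigns to a gene. Levels are given as TPM, transcript abundances corrected for length and for library size, and fold changes come from edgeR on the expected counts. All 10 luminal prostate markers averaged at least 1 TPM in each of the 4 groups, with a summed level of 4995 to 5429 TPM in LNCaP and 1917 to 2550 TPM in 22Rv1. The 6 basal markers summed to between 0.81 and 1.42 TPM in LNCaP and between 3.23 and 10.3 TPM in 22Rv1. The 6 stromal markers reached 31.8 to 50.6 TPM in LNCaP and 10.5 to 37.5 TPM in 22Rv1. COL1A1 made up most of the LNCaP sum, with a mean of 32.53 TPM over the 6 libraries. ACTA2 averaged 5.44 TPM there, while COL1A2 was at 0 in all 6 LNCaP libraries. The 8 endothelial and immune markers stayed between 0.65 and 6.85 TPM in sum, with CDH5 at 0 in all 12 libraries and CD68 at up to 6.02 TPM in LNCaP. In bulk RNA, fewer cells with a transcript and less transcript per cell cannot be told apart.

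Receptor tyrosine kinases span the cell membrane, act as pairs when a ligand binds outside the cell, and phosphorylate each other inside it. Adaptor proteins dock on the phosphorylated tails and pass the signal to RAS and ERK and to PI3K and AKT. ERBB2 has no known ligand and acts as the preferred partner of the other ERBB receptors, while ERBB3 binds neuregulins but has little kinase activity of its own. FGF receptors bind FGFs together with heparan sulfate or a Klotho protein, MET binds hepatocyte growth factor, and IGF1R binds IGF1 and IGF2. In the prostate these receptors are known for carrying growth signals between stroma and epithelium, and they have been studied as routes to growth when androgen is low.

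The order of the receptors differed between the lines, as the plot of TPM by library shows. In LNCaP with NC-mimic, ERBB2 led with a mean of 119 ± 7.65 TPM (SD, n = 3), followed by ERBB3 with 73.2 ± 2.60 TPM and EGFR with 20.1 ± 0.645 TPM. The libraries of these 3 genes did not overlap each other. FGFR1 (11.4 ± 1.93 TPM) and IGF1R (9.95 ± 1.94 TPM) followed and overlapped each other. FGFR4 stood at 5.84 ± 1.68 TPM, while FGFR2, FGFR3 and MET lay between 1.05 and 1.21 TPM on average and overlapped. ERBB4 was last with 0.17 ± 0.234 TPM. In 22Rv1 with NC-mimic, ERBB3 led with 84.9 ± 16.5 TPM. FGFR3 (40.9 ± 6.92 TPM) and ERBB2 (36.0 ± 3.45 TPM) came next and overlapped each other. FGFR1 (11.5 ± 1.22 TPM) and EGFR (11.2 ± 0.454 TPM) overlapped as well. FGFR4, IGF1R and MET lay between 3.39 and 5.10 TPM on average with overlapping neighbours, ERBB4 stood at 1.73 ± 0.234 TPM and FGFR2 at 0.233 ± 0.291 TPM.

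**Figure D1:**
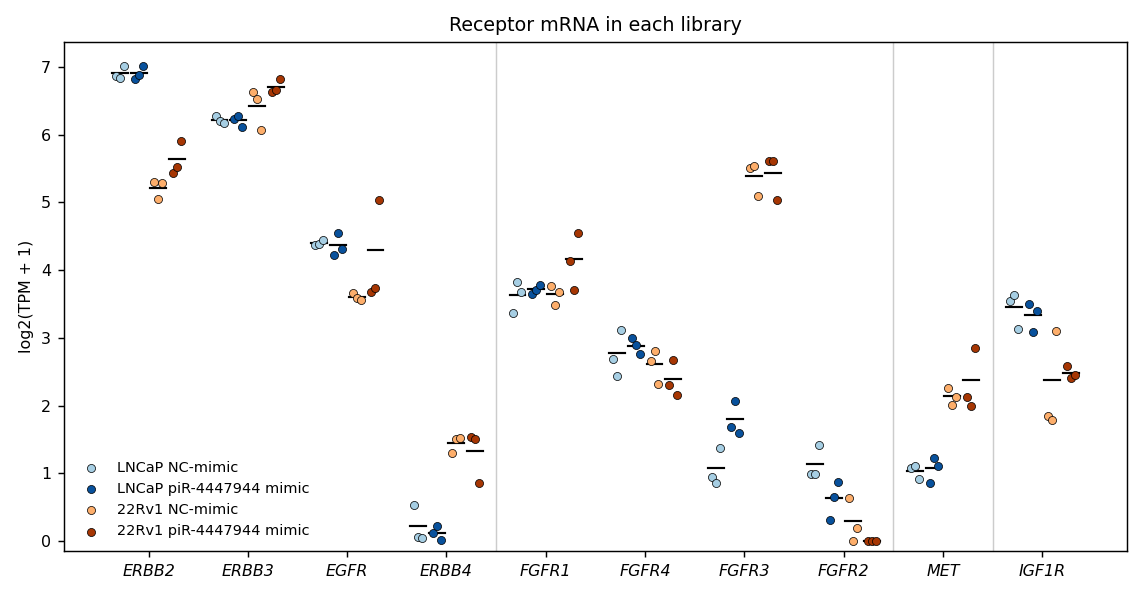
Level of each receptor in each of the 12 libraries as log2(TPM + 1), with a black bar at the group mean of 3 libraries on the TPM scale. ERBB2 lies higher in every LNCaP library than in any 22Rv1 library, FGFR3, ERBB4 and MET lie lower, and the 22Rv1 mimic library numbered 3 stands apart for EGFR with 31.8 TPM.

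The first comparison asked how far the receptors differ between the lines without the piRNA, with 3 NC-mimic libraries on each side. A gene was called when its adjusted p was under 0.05 and its log2 fold change over 1 or under -1. Of the 10 receptors, 3 were called higher in 22Rv1 (ERBB4, FGFR3 and MET) and 2 lower (ERBB2 and IGF1R). Over the 17497 genes tested, 19.1% were called higher and 15.4% lower, so calls were common between these lines. The median log2 fold change was -0.13 over the receptors and 0.01 over all genes. ERBB4 passed the filter on low counts through 22Rv1 and FGFR2 through LNCaP. By CPM, the counts scaled to a common library size, 7 of the 10 receptors had no overlap between the lines, against 67.2% of all genes tested. The same counts of 3 higher and 2 lower were obtained without the 22Rv1 library numbered 3, where 20% of all genes were called higher and 18% lower.

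ERBB2 (HER2, hg38 chromosome 17, 39687914 to 39730426, plus strand) was at 116, 114 and 128 TPM in LNCaP with NC-mimic. In 22Rv1 with NC-mimic it was at 38.2, 32.1 and 37.9 TPM. All 3 values of 22Rv1 lay far below those of LNCaP, with a log2 fold change of -1.60 ± 0.13 (SE) and an adjusted p of 3.11e-05 by edgeR. The genes PGAP3 and MIEN1 overlap ERBB2 on the other strand, and whether the counting used strand is not given in the sources used here.

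ERBB3 (HER3, chromosome 12, 56076799 to 56103505, plus strand), the neuregulin receptor with a weak kinase, was at 76.1, 72.5 and 71.0 TPM in LNCaP. In 22Rv1 it was at 97.5, 90.9 and 66.3 TPM. The library numbered 3 of 22Rv1 fell below all 3 LNCaP libraries, so the lines overlapped. The log2 fold change of 0.40 ± 0.17 did not pass the test (adjusted p = 0.0681, edgeR). A readthrough gene on the same strand overlaps ERBB3 and holds 0 to 386 expected counts by library, against 2377 to 6878 for ERBB3.

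EGFR (chromosome 7, 55019017 to 55211628, plus strand), which binds EGF, TGFA and amphiregulin, was at 19.6, 19.95 and 20.85 TPM in LNCaP. In 22Rv1 it was at 11.7, 11.02 and 10.81 TPM. The groups did not overlap, and the log2 fold change of -0.63 ± 0.09 passed the adjusted p (0.000476, edgeR) but not the fold limit. The antisense gene EGFR-AS1 overlaps EGFR and reached at most 0.46 TPM in any library.

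ERBB4 (HER4, chromosome 2, 211375717 to 212538841, minus strand), a neuregulin receptor with an active kinase, had 11, 3 and 4 expected counts in LNCaP and 297, 275 and 221 in 22Rv1. In TPM this was 0.44, 0.04 and 0.03 in LNCaP and 1.46, 1.85 and 1.88 in 22Rv1. The transcript was thus near the limit of detection in LNCaP and low in 22Rv1, without overlap. The pooled counts of 793 and 18 gave a 48.99-fold ratio per depth (exact 95% interval 30.8 to 83.1, counting error only). The fitted log2 fold change was 5.62 ± 0.43 (adjusted p = 1.94e-05, edgeR), and 6.32 without the LNCaP library numbered 1, which held 11 of the 18 counts. With the effective length of the transcripts as an offset it was 4.24.

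Within the ERBB family, ERBB2 made up 56.0 ± 1.91% of the summed TPM in LNCaP with NC-mimic and ERBB3 34.4 ± 1.88% (SD, n = 3). In 22Rv1 the order was turned round, with 63.0 ± 5.53% for ERBB3 and 27.2 ± 4.61% for ERBB2. EGFR held 9.47 ± 0.219% in LNCaP and 8.41 ± 0.748% in 22Rv1. The ratio of ERBB3 to ERBB2 was between 0.537 and 0.659 in the 6 LNCaP libraries and between 1.75 and 2.84 in the 6 libraries of 22Rv1, mimic included. The summed level of the family was 213 ± 6.86 TPM in LNCaP and 134 ± 16.1 TPM in 22Rv1 with NC-mimic.

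**Figure D2:**
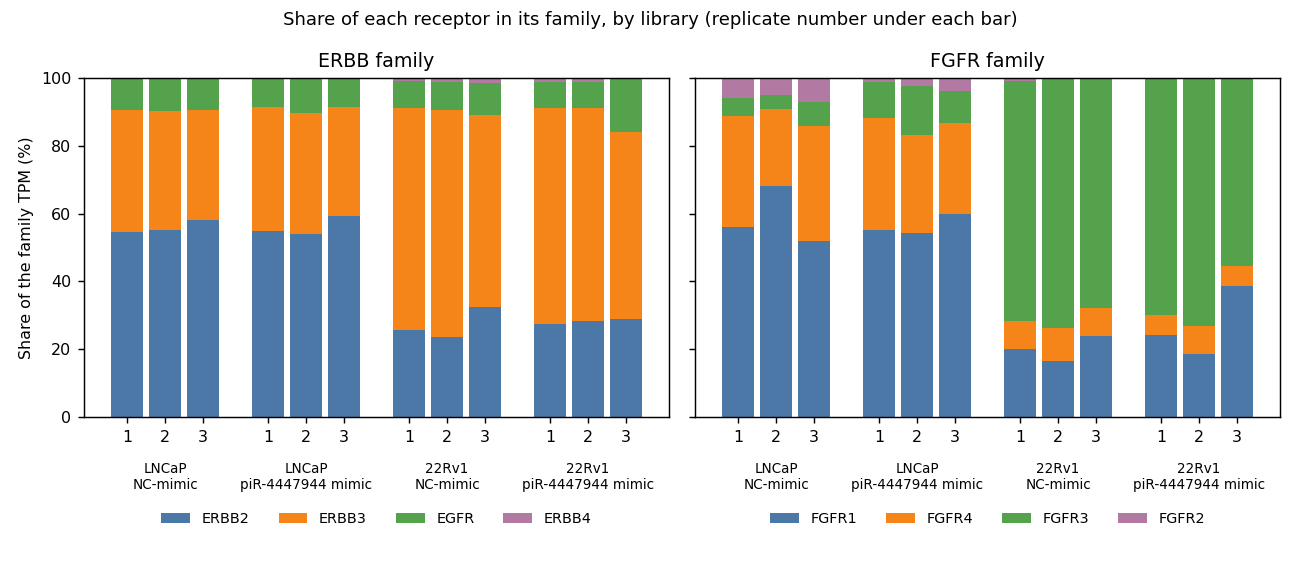
Share of each receptor in the summed TPM of its family, in percent, for each of the 12 libraries with the replicate number under each bar. ERBB2 holds the largest share in every LNCaP library and ERBB3 in every 22Rv1 library, while FGFR1 leads the FGF receptors in LNCaP and FGFR3 in 22Rv1.

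FGFR3 (chromosome 4, 1793293 to 1808872, plus strand), a receptor for several FGFs, was at 0.92, 0.81 and 1.58 TPM in LNCaP. In 22Rv1 it was at 44.5, 45.4 and 33.0 TPM. It rose from a trace in LNCaP to the level of ERBB2 in 22Rv1, with a log2 fold change of 4.97 ± 0.24 (adjusted p = 2.09e-06, edgeR), or 31.3-fold.

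FGFR1 (chromosome 8, 38400215 to 38468834, minus strand), which binds FGF2 among others, was at 9.36, 13.2 and 11.8 TPM in LNCaP and at 12.6, 10.2 and 11.7 TPM in 22Rv1. The groups overlapped, and the log2 fold change was -0.10 with a 95% interval of -0.48 to 0.27 (adjusted p = 0.602, edgeR). The intervals are those of the fit over the 6 libraries. LETM2 overlaps FGFR1 on the other strand and was at 1.48 to 12.9 TPM.

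FGFR4 (chromosome 5, 177086905 to 177098144, plus strand), the receptor that FGF19 engages with KLB, was at 5.42, 4.42 and 7.69 TPM in LNCaP and at 5.33, 5.97 and 4.01 TPM in 22Rv1. These values overlapped too, with a log2 fold change of -0.16 and an interval of -0.80 to 0.49 (adjusted p = 0.654, edgeR).

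FGFR2 (chromosome 10, 121478332 to 121598458, minus strand), whose epithelial form binds FGF7 and FGF10, had 18, 21 and 31 expected counts in LNCaP and 14, 0 and 2 in 22Rv1. Every LNCaP library lay above every 22Rv1 library, but the counts were low. The pooled counts of 70 and 16 gave a 3.93-fold higher level per depth in LNCaP (exact 95% interval 2.26 to 7.26, counting error only). The fit gave a log2 fold change of -2.13 ± 0.88 (adjusted p = 0.0676, edgeR), which did not pass. Without the 22Rv1 library numbered 1, which held 14 of the 16 counts, it was -4.01 with an adjusted p of 0.0127 and would be called.

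Among the FGF receptors, FGFR1 held 58.6 ± 8.35% and FGFR4 29.7 ± 6.04% of the summed TPM in LNCaP with NC-mimic. In 22Rv1, FGFR3 held 70.6 ± 3.11% and FGFR1 20.2 ± 3.72%. The family summed to 19.6 ± 3.01 TPM in LNCaP and 57.8 ± 7.78 TPM in 22Rv1. The ratio of FGFR3 to FGFR1 lay between 0.0615 and 0.264 in LNCaP and between 1.43 and 4.44 in 22Rv1 over all libraries of each line.

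MET (chromosome 7, 116672196 to 116798377, plus strand), the receptor of HGF, was at 1.12, 1.15 and 0.88 TPM in LNCaP and at 3.78, 3.04 and 3.36 TPM in 22Rv1. Both lines held little of it, and the lines did not overlap. Its log2 fold change was 2.09 ± 0.23 (adjusted p = 0.000138, edgeR), or 4.26-fold.

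IGF1R (chromosome 15, 98648539 to 98964530, plus strand), which signals through the IRS adaptors, was at 10.7, 11.4 and 7.75 TPM in LNCaP and at 2.58, 2.47 and 7.62 TPM in 22Rv1. The value of the 22Rv1 library numbered 3 came close to the lowest LNCaP value. The expected counts of the 3 22Rv1 libraries were 429, 285 and 361, and the effective length that RSEM used for the gene was 9662, 9195 and 4738 bases. TPM divides counts by this length. Scaled to total counts the 3 libraries were at 19.3, 18.2 and 29.7 CPM, so the library numbered 3 was also highest without the length, though by less than in TPM. On counts the log2 fold change was -1.43 ± 0.20 (adjusted p = 0.000534, edgeR), and -1.18 with the effective length as an offset.

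The promoters of 4 of the 5 receptors called between the lines are shown, so that the sequence before each gene stands beside its values. That of ERBB2 is not shown, since its window overlaps an exon of PGAP3. They are RefSeq sequences (GRCh38.p14) from up to 250 bases before the annotated start, read 5′ to 3′ on the strand of the gene, and end before the first annotated base of the gene. Capitals mark the GC box GGGCGG on either strand, a motif bound by Sp1. ERBB4, FGFR3 and MET were higher in 22Rv1 and IGF1R was higher in LNCaP. The stretches lie at chr2:212538842-212539052 (minus strand), chr4:1793043-1793292, chr7:116671946-116672195 and chr15:98648289-98648538 (plus strand).
ERBB4: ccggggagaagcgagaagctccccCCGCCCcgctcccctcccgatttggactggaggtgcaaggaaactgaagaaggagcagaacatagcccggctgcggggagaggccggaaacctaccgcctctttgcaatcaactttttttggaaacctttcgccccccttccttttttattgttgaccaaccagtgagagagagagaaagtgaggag
FGFR3: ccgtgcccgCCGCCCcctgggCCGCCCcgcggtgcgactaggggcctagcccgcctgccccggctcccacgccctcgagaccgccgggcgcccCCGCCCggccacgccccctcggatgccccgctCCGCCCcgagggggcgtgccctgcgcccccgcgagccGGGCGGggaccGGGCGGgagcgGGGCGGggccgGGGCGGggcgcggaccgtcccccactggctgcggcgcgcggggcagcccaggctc
MET: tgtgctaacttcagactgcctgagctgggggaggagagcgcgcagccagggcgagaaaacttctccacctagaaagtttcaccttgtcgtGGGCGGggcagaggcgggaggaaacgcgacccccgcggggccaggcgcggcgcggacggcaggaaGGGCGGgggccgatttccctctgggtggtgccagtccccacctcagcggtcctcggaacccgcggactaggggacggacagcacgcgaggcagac
IGF1R: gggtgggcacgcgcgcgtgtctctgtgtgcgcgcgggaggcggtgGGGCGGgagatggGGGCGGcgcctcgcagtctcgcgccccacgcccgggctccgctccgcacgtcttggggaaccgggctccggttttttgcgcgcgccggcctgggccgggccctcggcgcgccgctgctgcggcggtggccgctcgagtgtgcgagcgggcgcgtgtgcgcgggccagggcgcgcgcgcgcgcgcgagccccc

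These stretches hold 1 GC box for ERBB4, 8 for FGFR3, 2 for MET and 2 for IGF1R. Full windows of 300 bases, which reach 50 bases past the start, were matched for 8 of the 10 receptors, all but FGFR1 and ERBB3. The GC box was present in 7 of these 8 windows, all but that of ERBB2, and in 44.9% of 34796 promoters of the same length. GC content was 86.3% for FGFR3, higher than in 99.9% of all promoters. It was 79.7% for IGF1R, 79.3% for FGFR2, 78.7% for FGFR4, 75.3% for EGFR and 69.3% for MET. The windows of ERBB2 (60.7%) and ERBB4 (59%) were near the median of 58.7%. TATAAA, the TATA box, was in 0 of the 8 (11.6% of all promoters), and TGANTCA, the AP-1 motif, was in that of ERBB2 alone (7.73%). AGAACA, bound by the androgen receptor as 1 arm of its element, was in ERBB2 and ERBB4 (14.8%), and ACGTG, the core of the hypoxia response element, was in MET and IGF1R (21.4%). All motifs were searched on both strands, and a match describes the letters only.

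The second comparison asked whether piR-4447944 mimic changed the receptors in each line. A gene was called at the thresholds of the study, a log2 fold change beyond 0.2 in either direction and p under 0.05 without adjustment, applied here to edgeR fold changes without shrinkage. With the shrunken DESeq2 fold changes that the study used, 2 genes in LNCaP and 233 in 22Rv1 passed, with 0 receptors among them. By edgeR none of the receptors met these thresholds, with 0 of 9 tested in LNCaP and 0 of 9 in 22Rv1. The background was 2.22% of the 16244 genes tested in LNCaP and 1.48% of 16898 in 22Rv1. After adjustment 0 genes passed in either line by edgeR, while 433 genes in LNCaP and 250 in 22Rv1 had an unadjusted p under 0.05. When same-numbered libraries of 22Rv1 were treated as pairs (replicate block), 420 genes met the thresholds of the study without adjustment, with 0 receptors among them. ERBB4 was too low to be tested in LNCaP and FGFR2 in 22Rv1.

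**Figure D3:**
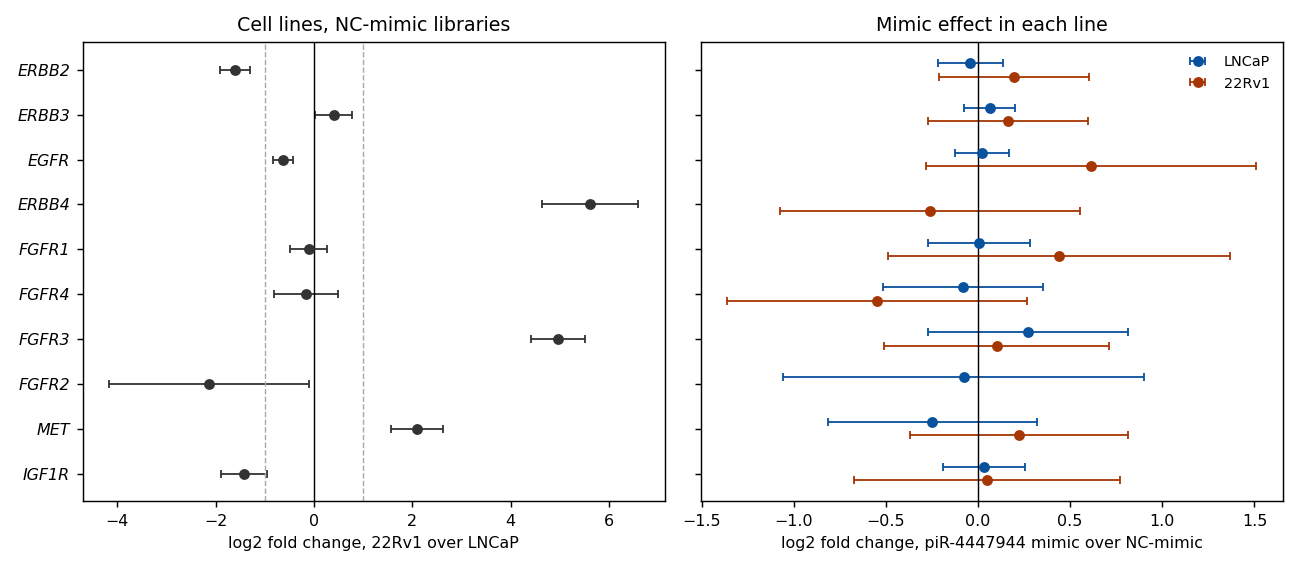
Log2 fold changes of the receptors by edgeR with 95% intervals, for 22Rv1 over LNCaP in the NC-mimic libraries on the left (dashed lines at the limit of 1) and for the mimic over NC-mimic in each line on the right. ERBB4, FGFR3 and MET lie above the upper limit on the left, and every interval on the right includes 0.

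In LNCaP the ERBB receptors kept close to their control levels. ERBB2 was at 112, 116 and 127 TPM with the mimic, a log2 fold change of -0.04 with a 95% interval of -0.22 to 0.13. ERBB3 was at 73.9, 76.4 and 68.4 TPM, a log2 fold change of 0.06 (-0.07 to 0.20). By CPM the mimic libraries of ERBB3 all lay above the control libraries (206 ± 2.19 against 197 ± 9.44 CPM, exact permutation p = 0.1, the smallest that 3 against 3 allows). This was 1 of 9 receptors, against 7.95% of all genes without overlap in LNCaP. By TPM it was 2 of 9, FGFR2 and FGFR3, against 8.4%. EGFR was at 17.8, 22.3 and 18.8 TPM, a log2 fold change of 0.02 (-0.13 to 0.17). ERBB4 had 4, 5 and 2 expected counts with the mimic, as few as with NC-mimic.

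FGFR1 in LNCaP was at 11.6, 12.04 and 12.8 TPM with the mimic, which overlapped the control libraries, with a log2 fold change of 0.01 (-0.27 to 0.28). FGFR4 was at 6.96, 6.41 and 5.75 TPM, a log2 fold change of -0.08 (-0.52 to 0.35). MET was at 0.82, 1.33 and 1.16 TPM, with a wider interval of -0.81 to 0.32 around -0.25. IGF1R was at 10.3, 7.5 and 9.49 TPM, a log2 fold change of 0.03 (-0.19 to 0.25). The intervals of these 4 genes reach at most 0.81 in either direction.

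FGFR3 and FGFR2 in LNCaP gave different answers by TPM and by counts, as the bars of effective length and TPM show. FGFR3 was at 2.23, 3.18 and 2.03 TPM with the mimic, above all 3 control libraries (0.92, 0.81 and 1.58 TPM). Its expected counts were 57, 52 and 60 with the mimic and 54, 48 and 57 without, and its effective length averaged 1940 bases with the mimic and 3608 bases without. The log2 fold change was 0.27 ± 0.25 on counts (unadjusted p = 0.299, edgeR), 1.16 with the effective length as an offset (unadjusted p = 0.00598, adjusted p = 0.999, edgeR) and 0.73 by limma on log2(TPM + 1) (unadjusted p = 0.0138, adjusted p = 0.999). FGFR2 was at 0.24, 0.57 and 0.84 TPM with the mimic, below the control libraries (0.98, 0.98 and 1.66 TPM), from counts of 9, 20 and 31 against 18, 21 and 31. Its effective length averaged 2971 bases with the mimic and 1386 bases without. It gave -0.08 ± 0.45 on counts and -1.13 with the length offset (unadjusted p = 0.0451, adjusted p = 0.999, edgeR). The 2 receptors thus met the thresholds only where length entered the fit, at counts of 60 or fewer per library.

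**Figure D4:**
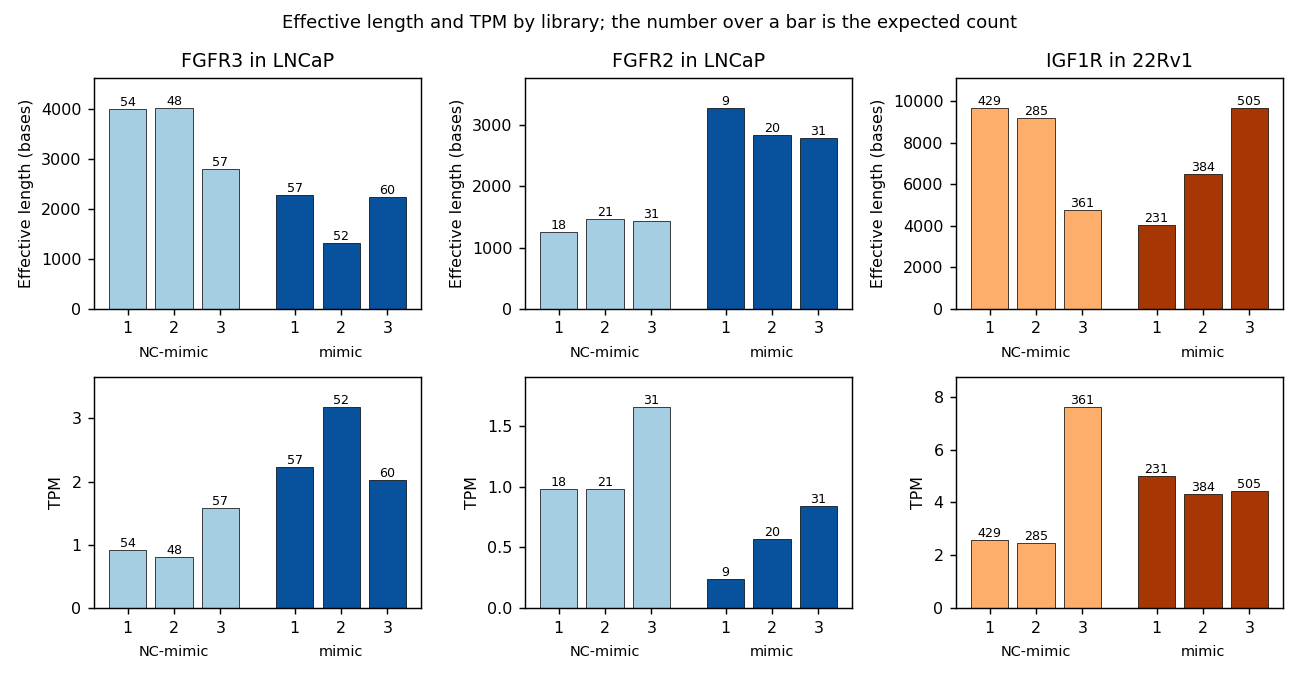
Effective length in bases (top) and TPM (bottom) by library for FGFR3 and FGFR2 in LNCaP and for IGF1R in 22Rv1, with the expected count written over each bar. In LNCaP, FGFR3 has a higher TPM and a shorter length with the mimic and FGFR2 a lower TPM and a longer length, while the counts of FGFR3 lie between 48 and 60 in all 6 libraries.

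In 22Rv1 the spread was wider, and 1 library carried most of the shifts. EGFR was at 11.7, 12.3 and 31.8 TPM with the mimic, against 11.7, 11.02 and 10.81 TPM with NC-mimic. All 3 mimic values lay above the controls in TPM, 2 of them by less than 1 TPM, while by CPM the groups overlapped. The log2 fold change was 0.61 ± 0.38 (unadjusted p = 0.151, edgeR), -0.03 without that library, and 0.87 without the mimic library numbered 1, where it passed the thresholds (unadjusted p = 0.0462, adjusted p = 0.988, edgeR). ERBB2 was at 42.2, 44.8 and 59.1 TPM with the mimic, above its 3 controls in TPM but not in CPM, with a log2 fold change of 0.20 (-0.21 to 0.60). ERBB3 was at 97.7, 99.5 and 112 TPM, a log2 fold change of 0.16 (-0.27 to 0.60). The 2 main ERBB receptors were therefore not separated from control beyond the spread of the counts. ERBB4 was at 1.90, 1.85 and 0.82 TPM, the third value below all controls, with a log2 fold change of -0.26 (-1.07 to 0.56).

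FGFR1 was at 16.6, 12.1 and 22.3 TPM in 22Rv1 with the mimic, with a log2 fold change of 0.44 (-0.49 to 1.37) that was -0.20 without the mimic library numbered 3. FGFR3 was at 47.6, 47.7 and 31.9 TPM, a log2 fold change of 0.10 (-0.51 to 0.71). In both groups the library numbered 3 held the lowest FGFR3 value. FGFR4 was at 3.92, 5.36 and 3.45 TPM, with a log2 fold change of -0.55 (-1.36 to 0.27, unadjusted p = 0.158, edgeR). By CPM it was lower than the same-numbered control in 3 of 3 pairs. ERBB2 was higher in 3 of 3 pairs, and the share of such genes over all genes was not counted. FGFR2 had 0 counts in all 3 mimic libraries and 14, 0 and 2 with NC-mimic. No fold is given, since 1 control library held nearly all counts.

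MET was at 3.38, 3.00 and 6.18 TPM in 22Rv1 with the mimic, and IGF1R was at 5.00, 4.33 and 4.45 TPM. The counts of IGF1R were 231, 384 and 505, its effective length was 4055, 6479 and 9680 bases, and scaled to total counts it was at 16.3, 21.5 and 32.7 CPM. The log2 fold changes were 0.22 (-0.37 to 0.81) for MET and 0.05 (-0.67 to 0.77) for IGF1R. By CPM, 0 of 9 receptors had no overlap between mimic and control in 22Rv1, against 8.71% of all genes. By TPM it was 3 of 9 (EGFR, ERBB2 and ERBB3, all higher with the mimic), against 8.81% of all genes. KLK3 and KLK2, secreted luminal kallikreins, were the 2 of 10 luminal markers called lower with the mimic in 22Rv1 (log2 fold changes -0.76 and -0.53, adjusted p = 0.999 for both, edgeR). Without the libraries numbered 3, 1 luminal marker was called lower, and the part of cell state in the receptor values was not tested.

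The difference of the mimic effect between the lines was tested over all 12 libraries. It passed for 0 of 10 receptors and 0 of 18720 genes at an adjusted p under 0.05 by edgeR, with 610 genes at an unadjusted p under 0.05. DESeq2 passed 3 genes and limma on log2(TPM + 1) 2 genes, with 0 receptors in each. Of the receptors only FGFR2 was under 0.05 before adjustment, and that value rests on the 0 counts of its 3 mimic libraries in 22Rv1. The difference was 0.60 ± 0.43 for EGFR and -0.46 ± 0.42 for FGFR4, and between -0.17 and 0.47 for the other 7.

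The libraries numbered 3 of 22Rv1 stood apart from replicates 1 and 2 in both groups. Of 16517 genes, 9.00% were over 1.5-fold higher there in both groups and 6.35% were as much lower, against 1.53% and 1.75% in LNCaP. Of the receptors with a mean of at least 1 TPM, 0 of 9 passed this limit in both groups by TPM. EGFR was 2.64-fold the mean of the other 2 libraries with the mimic but 0.952-fold with NC-mimic. IGF1R was 0.954-fold with the mimic but 3.02-fold with NC-mimic, the furthest of the receptors. MET was 1.94-fold and 0.985-fold, FGFR1 1.55-fold and 1.03-fold, and ERBB4 0.437-fold and 1.14-fold. FGFR3 (0.670-fold and 0.734-fold) and FGFR4 (0.744-fold and 0.710-fold) were lower in both, though not past the limit in TPM. In TPM the receptors of these libraries thus moved in 1 group or stayed within the limit. Scaled to total counts, IGF1R and FGFR3 passed it in both groups. With NC-mimic the library numbered 3 held 29.7 CPM of IGF1R, against 19.3 and 18.2 CPM. With the mimic it held 32.7 CPM, against 16.3 and 21.5 CPM. For FGFR3 it held 67.4 CPM against 97.1 and 108 with NC-mimic, and 68.5 CPM against 120 and 110 with the mimic.

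Some ligands and inhibitors of the same pathways passed the limit by TPM in both groups, and they were named after their values were seen. At a mean of at least 1 TPM, 4 of 5 ERBB ligands, 5 of 18 inhibitors and 5 of 10 ERK transcripts were higher, against 9.00% of all genes. It was 1 of 4 FGF ligands, 2 of 14 adaptors, 1 of 7 proteases and 0 of 5 co-receptors and related receptors. Among the ERBB ligands TGFA, HBEGF, AREG and NRG3 were higher and BTC was lower in the libraries numbered 3, and AREG and NRG3 reached a mean of 1 TPM only through these libraries. AREG, the ligand amphiregulin, was at 0.72, 0.70 and 10.7 TPM with NC-mimic and at 0.52, 1.44 and 10.0 TPM with the mimic. HBEGF was at 1.39, 0.76 and 6.73 TPM and at 2.04, 1.72 and 5.15 TPM. Among the inhibitors ERRFI1, SPRY1, DUSP4, DUSP5 and DUSP6 were higher, of which DUSP5 reached 1 TPM only through the libraries numbered 3. ERRFI1, which binds and inhibits EGFR, was at 12.2, 12.3 and 72.2 TPM with NC-mimic and at 10.0, 13.2 and 63.8 TPM with the mimic. Among the transcripts known to rise with ERK activity PHLDA1, DUSP4, DUSP6, ETV4 and ETV5 were higher, of which DUSP4 and DUSP6 are also counted as inhibitors. IGF1 and IGFBP3 were lower there, as were 6.35% of all genes. The labels give no batch for these libraries, and their part in the receptor values was not tested beyond leaving them out.

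The partners of the receptors also differed between the lines in the NC-mimic libraries, as the plot of the lists shows. Of the ERBB ligands 6 of 11 were high enough to test, with 2 called higher in 22Rv1 and 1 lower. Over all genes 19.1% were called higher and 15.4% lower. BTC and NRG3 passed the filter on low counts only through 22Rv1 and EGF only through LNCaP, so their direction was set by the filter. EGF was at 4.69, 2.09 and 3.22 TPM in LNCaP and at 0.10, 0.07 and 0.48 TPM in 22Rv1 (log2 fold change -3.27 ± 0.91, adjusted p = 0.0143, edgeR). BTC, betacellulin, was higher in 22Rv1 (2.25 ± 0.50, adjusted p = 0.00481), as was NRG3, a neuregulin that binds ERBB4 (1.74 ± 0.56, adjusted p = 0.0279). The call of NRG3 was lost without any 1 of 4 libraries, with 1.09 without the 22Rv1 library numbered 3, and that of EGF without the LNCaP library numbered 3 (adjusted p = 0.0546). EGF changed by -5.65 without the 22Rv1 library numbered 3. Without the 22Rv1 library numbered 3, 1 of 7 ERBB ligands was called higher and 4 lower, against 20% and 18% of all genes.

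**Figure D5:**
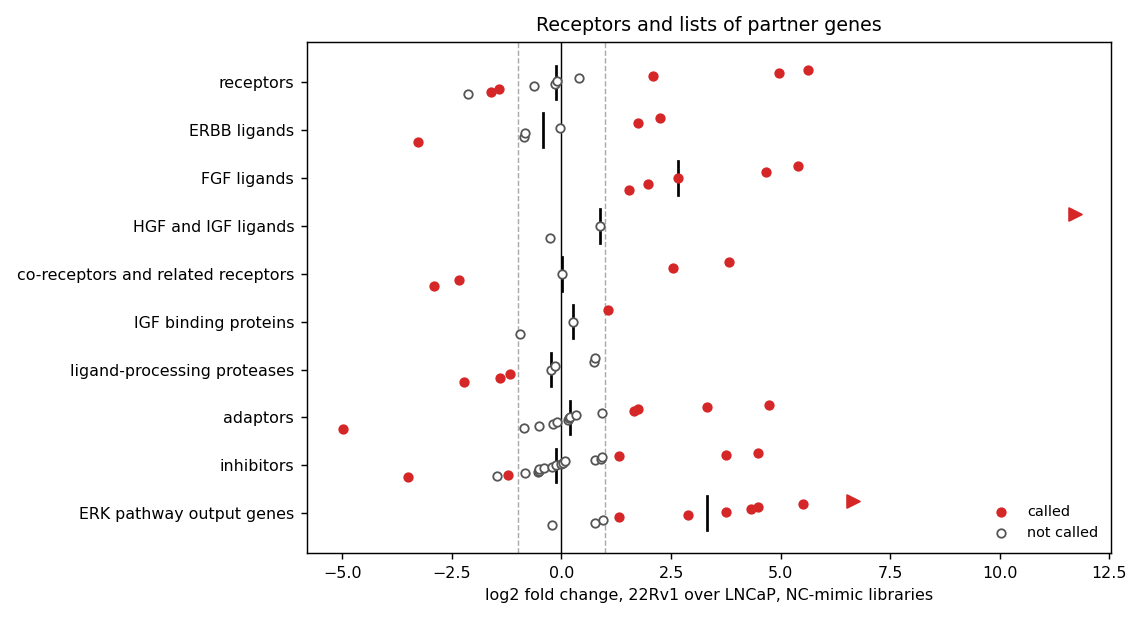
Log2 fold change of each tested gene in 22Rv1 over LNCaP with NC-mimic, for the 10 receptors and 9 lists of partner genes, with filled points for called genes, a bar at the median of each list and dashed lines at the limit of 1. Triangles mark HGF and EPHA4, which have 0 counts in LNCaP and are placed at their lower bound. The 5 tested FGF ligands lie above the limit, and all but FGF13 passed the filter on low counts only through 22Rv1.

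Of the 22 FGF genes 5 passed the filter on low counts and were called higher in 22Rv1, where 19.1% of all genes were. FGF2, FGF11, FGF17 and FGF22 passed it only through 22Rv1, where they were high, so their direction was set by the filter. For FGF11 the LNCaP library numbered 2 fell short, with 4.54 counts. FGF17 was at 0.20, 0.06 and 0.22 TPM in LNCaP and at 4.71, 7.21 and 5.27 TPM in 22Rv1 (5.39 ± 0.47, adjusted p = 4.06e-05, edgeR). FGF11, one of the FGFs that stay inside the cell and do not bind FGF receptors, was at 0.44, 0.25 and 1.5 TPM and at 7.85, 10.7 and 21.6 TPM (4.66 ± 0.69, adjusted p = 0.000618), and changed by 5.69 without the LNCaP library numbered 3. The others were FGF2, FGF13 and FGF22, and FGF13 belongs to the intracellular group as well. Of the co-receptors and related receptors 2 of 5 were higher and 2 lower, against 19.1% and 15.4% of all genes. KLB, the co-receptor for FGF19, rose in 22Rv1 (2.54 ± 0.40, adjusted p = 0.000933), and FGFRL1, an FGF receptor without a kinase, fell from 174, 164 and 153 TPM to 18.2, 17.0 and 21.8 TPM (-2.91 ± 0.10, adjusted p = 6.13e-07).

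HGF, the ligand of MET, had 0 counts in all 6 LNCaP libraries and 2211, 1716 and 5087 counts in 22Rv1 with NC-mimic. Taking 3 counts over the LNCaP group as the floor, the level in 22Rv1 was at least 3341-fold higher. The exact 95% interval of the counts reached down to 2716-fold, and the floor gave 1923-fold without the library numbered 3, which held 5087 of the 9014 counts. It was the only 1 of 3 tested HGF and IGF ligands called, and the 2 others, IGF1 and IGF2, did not pass (adjusted p = 0.438 and 0.796, edgeR). Without the 22Rv1 library numbered 3, 2 of the 3 were called higher, against 20% of all genes. MST1R, the receptor related to MET, was also higher in 22Rv1 (3.82 ± 0.53, adjusted p = 0.000438). HPN, a membrane protease that can activate HGF, was at 109, 98.5 and 120 TPM in LNCaP and at 20.5, 27.7 and 19.3 TPM in 22Rv1 (-2.24 ± 0.14, adjusted p = 7.41e-06). It was 1 of 3 lower proteases of 7 tested, with ADAM10, a sheddase of ERBB ligands (-1.39 ± 0.11, adjusted p = 2.68e-05, edgeR), and 0 were higher. Over all genes 15.4% were lower and 19.1% higher. Without the 22Rv1 library numbered 3, 2 proteases were lower, against 18% of all genes. Both ligand and receptor of the MET pair were thus called higher in 22Rv1, where 19.1% of all genes were. HGF passed the filter on low counts only through 22Rv1, so its direction was set by the filter.

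On the IGF1R side, IRS1 and IRS2, the docking proteins of the receptor, were higher in 22Rv1, where IGF1R itself was lower. IRS2 was at 0.72, 0.75 and 0.81 TPM in LNCaP and at 12.9, 11.9 and 33.2 TPM in 22Rv1 (4.73 ± 0.45, adjusted p = 6.24e-05, edgeR), or 4.07 without the 22Rv1 library numbered 3, and IRS1 changed by 3.31 ± 0.24 (adjusted p = 1.52e-05). GRB10, an adaptor that inhibits IGF1R and the insulin receptor, was at 354, 350 and 342 TPM in LNCaP and at 8.70, 5.99 and 19.0 TPM in 22Rv1 (-4.98 ± 0.34, adjusted p = 1.08e-05). Of 14 adaptors 4 were called higher and 1 lower, against 19.1% and 15.4% of all genes. IGF2R, which clears IGF2, was lower in 22Rv1 (-2.33 ± 0.12, adjusted p = 2.76e-06), and INSR, the insulin receptor, differed by 0.01 ± 0.13 (adjusted p = 0.931). IGFBP3, which binds IGFs, was higher (1.06 ± 0.29, adjusted p = 0.0139), but not called without the 22Rv1 library numbered 1 (0.81) or the LNCaP library numbered 3 (largest adjusted p = 0.0605).

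Of the 19 inhibitors of the receptors or of ERK signalling 3 were called higher in 22Rv1 and 2 lower, against 19.1% and 15.4% of all genes. Without the 22Rv1 library numbered 3 it was 3 and 4, against 20% and 18% of all genes. The shares of the inhibitors lay near or below those of all genes. LRIG1, which promotes degradation of ERBB receptors, was at 33.5, 33.9 and 30.8 TPM in LNCaP and at 4.41, 2.68 and 1.99 TPM in 22Rv1 (-3.50 ± 0.21, adjusted p = 6.55e-06, edgeR). SPRY3 was lower (-1.22 ± 0.43, adjusted p = 0.0387), but lost its call in 3 of 6 fits without 1 library. SPRY2 (4.49 ± 0.39, adjusted p = 3.88e-05) and DUSP6 (3.75 ± 0.67, adjusted p = 0.00174), which act as feedback on RAS and on ERK, were higher, and DUSP6 changed by 2.74 without the 22Rv1 library numbered 3. Of the 10 transcripts known to rise with ERK activity 7 were higher and 0 lower, against 19.1% and 15.4% of all genes. Without the 22Rv1 library numbered 3 it was 7 and 1, against 20% and 18% of all genes. EPHA4, ETV4, ETV5 and SPRY2 passed the filter on low counts only through 22Rv1, so their direction was set by the filter. ETV5 was at 0.25, 0.13 and 0.83 TPM in LNCaP and at 3.02, 1.93 and 9.41 TPM in 22Rv1 (5.51 ± 0.94, adjusted p = 0.00133), and 4.10 without the 22Rv1 library numbered 3. EPHA4 had 0 counts in LNCaP and 130, 86 and 55 in 22Rv1, at least 100-fold higher at the floor of 3 counts over the group. SPRY2, SPRY4, DUSP4 and DUSP6 are in both lists. With the mimic, 0 genes of these 9 partner lists were called in either line. Without the libraries numbered 3 of 22Rv1, 2 adaptors and 1 inhibitor were called higher and 1 ERK output gene lower in that line, where 4.57% of all genes were called.

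For the 3 receptors with the highest mean level, the genes with the most similar pattern over the 12 libraries were sought among 12231 genes with at least 1 TPM in each. The measure was the root mean square difference of log2(TPM + 1), centred on its mean. For ERBB2 these were PWWP2B (0.0901) and CELSR2 (0.109), for ERBB3 HGSNAT (0.0873) and TNKS (0.0925), and for FGFR3 CLU (0.253) and RASA4B (0.288). CLU averaged 85.4 TPM over the LNCaP libraries and 1205 TPM over those of 22Rv1. The points share line and depth, and the likeness is a description.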

How the data were processed

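RNA of 12 samples (total RNA, miRNeasy extraction) was sequenced after transfection of the mimic or NC-mimic. The submitters' processing notes name STAR 2.7.1a, RSEM 1.3.0, R 4.1.1, DESeq2 1.34.0 and the build hg38. The deposited tables hold, per gene, the expected count of the authors (unnormalized, fractional where reads were shared between genes), TPM, and the effective length. The annotation release and whether counting used strand are not given in the sources used here.

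Expected counts were rounded and tested with edgeR 4.0.16 (R 4.3.3, quasi-likelihood F-test, TMM normalization, filterByExpr), with Benjamini-Hochberg adjustment over all genes tested. Each mimic comparison used the 6 libraries of 1 line, the line comparison the 6 NC-mimic libraries, and the difference of effects all 12. Single values were also compared by exact two-sided permutation of 3 against 3 libraries. Ratios of pooled counts have exact 95% intervals for counting error only. limma 3.58.1 on log2(TPM + 1) and DESeq2 1.42.0 were alternatives. Same-numbered libraries deviated together in 22Rv1 (correlations 0.347, 0.277 and 0.465), but in LNCaP only those numbered 3 did (0.054, -0.004 and 0.301). They were taken to pair in 22Rv1, from the values alone since the labels name no shared culture. The 22Rv1 libraries numbered 2 were not each other's best match, so this pairing is uncertain. The main fits of both lines held no pairing, which entered only through the replicate block. Gene spans are from GENCODE v44 and promoters from RefSeq. Receptors were chosen by symbol. Partner genes named in the text were the 1 or 2 with the largest called change in each direction of each list. Receptors and lists were chosen with earlier results of these data known. Depth was 12161091 to 22179601 counts per library. Code was tested on simulated counts.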

Additional observations from a re-analysis of the deposited data

How the results depend on the processing

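Between the lines, the 5 called receptors kept direction and call under every alternative in which the gene could be tested, and 5 to 6 receptors were called when 1 library was left out (5625 to 6963 genes). At least 10 counts in every library left 3561 genes called, since fewer genes were tested, and ERBB4 and FGFR2 untested. FGFR1 turned from -0.10 to 0.017 by limma and 0.10 with the length offset, and ranged from -0.23 to 0.0082 without 1 library. FGFR4 ranged from -0.33 to 0.13. On log2(TPM + 1), ERBB4 differed by 1.24 and MET by 1.10.

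In LNCaP, the mimic called 361 genes by edgeR, 891 with no filter on low counts, 168 with all 12 libraries in one fit, 2 by DESeq2 with shrunken fold changes, 578 by limma on log2(TPM + 1) with 1 receptor, and 573 with the length offset with 2 receptors. Without 1 library it was 284 to 1008 genes, the last without the NC-mimic library numbered 3, and 0 receptors. A replicate block gave 508 genes with 0 receptors, and LNCaP libraries sharing a number were not taken to pair. By limma, EGFR at -0.043, ERBB3 at -0.0061, FGFR4 at 0.13, MET at 0.032 and IGF1R at -0.11 turned sign. With the offset they were -0.043, -0.0072, 0.12, 0.055 and -0.13. Ranges without 1 library that crossed 0 were -0.0056 to 0.0704 for EGFR, -0.11 to 0.038 for ERBB2, -0.10 to 0.14 for FGFR1, -0.48 to 0.28 for FGFR2, -0.24 to 0.22 for FGFR4 and -0.044 to 0.17 for IGF1R.

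In 22Rv1, the mimic called 250 genes, 532 with no filter, 1232 with all 12 libraries in one fit, 459 by limma, 233 by DESeq2 with shrunken fold changes, 395 with the length offset and 781 without the libraries numbered 3. Without 1 library it was 183 to 376 genes and 0 to 1 receptors. The replicate block gave 420 genes and changed no other call. The 1 receptor called with all 12 libraries was FGFR2, which the filter left out of the fit of 22Rv1 alone and which had 0 counts with the mimic. Without the libraries numbered 3, the values were EGFR -0.027, ERBB4 0.12, FGFR1 -0.17 and IGF1R -0.017. With the offset FGFR3 was at -0.011. Ranges without 1 library were -0.0295 to 0.87 for EGFR, -0.013 to 0.30 for ERBB3, -0.46 to 0.046 for ERBB4, -0.20 to 0.68 for FGFR1, -0.079 to 0.31 for FGFR3, -0.053 to 0.39 for MET and -0.26 to 0.29 for IGF1R.

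For the difference of effects, 0 genes passed by edgeR, 3 by DESeq2, 2 by limma and 0 to 1 without 1 library. IGF1R was at -0.0197 with the replicate block and ERBB4 at -0.055 by limma. Without the libraries numbered 3 of 22Rv1, the differences were EGFR -0.058, ERBB3 -0.069, FGFR1 -0.18 and IGF1R -0.056. Ranges without 1 library were -0.056 to 0.88 for EGFR, -0.074 to 0.25 for ERBB3, -0.47 to 0.58 for ERBB4, -0.22 to 0.70 for FGFR1, -0.35 to 0.026 for FGFR3 and -0.29 to 0.26 for IGF1R. Why these values moved was not tested. The effective length offset, the lists and the bound of HGF without the libraries numbered 3 and the named partner genes without 1 library were chosen after seeing the data. ERBB4 held 18 and 11 counts over the LNCaP groups and was not tested there.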
